A study of Homo sapiens with 6 samples.

Results

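The genes described here encode lysosomal proteins and the factors that control them, 42 genes of the 40173 in the count table. They were taken from the table by gene symbol, and comprised 7 proteases, 11 glycosidases, 4 sulfatases, 4 lipid hydrolases, 3 cofactors or carriers, 5 membrane proteins, 5 subunits of the vacuolar proton pump (V-ATPase) and the 3 transcription factors TFEB, TFE3 and MITF. All 42 genes passed the filter on low counts and were among the 15250 genes tested. RNA-Seq had been performed on cells labelled as A549, a human lung adenocarcinoma cell line, a day after transfection with an siRNA against the long noncoding RNA FAM83H-AS1 (silenced, 3 libraries) or with a negative control (control, 3 libraries). Both groups were labelled as the same line and both had been transfected. Nothing in the labels says that the libraries of a group came from separate cultures, so that the p-values measure the spread between these libraries, which may be technical.

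Lysosomes are acidic organelles in which proteins, glycans and lipids delivered by endocytosis and autophagy are broken down. The hydrolases are tagged with mannose 6-phosphate in the Golgi apparatus and sorted to the lysosome, the V-ATPase acidifies its lumen, and heavily glycosylated membrane proteins such as LAMP1 and LAMP2 line its membrane. TFEB, TFE3 and MITF, basic helix-loop-helix factors held in the cytoplasm while the kinase mTOR is active, bind E-box sequences in the promoters of many of these genes. In lung epithelium the lysosome and the related lamellar body serve the turnover of surfactant, and cathepsins released by carcinoma cells are known to cleave extracellular matrix.

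Promoter windows from RefSeq (GRCh38.p14), each running from 250 bases before to 50 bases after an annotated start, were present for 31 of the 42 genes. The word CACGTG, the core of the E-box that the TFE factors recognize and which reads the same on both strands, occurred in a window of 9 of these 31 genes (29.03%), of 12.7% of the tested genes with a window and of 8.78% of all genes with a window. By window, the share was 19.1% of 47 for the lysosomal genes, 9.34% of 13829 for the tested genes and 7.26% of 35116 in all. The longer words contain the shorter one: TCACGTGA was found for 5 of the 31 genes (16.1%, against 2.22% of the tested genes and 1.18% of all genes), and the 10-base palindrome of the CLEAR element, which has a further G before and C after TCACGTGA, for 2 of them (6.45%, against 0.904% and 0.421%). In the 6 related gene lists described at the end, the shares for the 3 words were 21.2%, 8.97% and 3.85% of 156 genes with a window. A word in a window is a description of the sequence and not a measured binding site. The 9 sites below are shown because they carry the longer words, or, for NEU1, because the gene passed the test. Capitals mark CACGTG, and each sequence is written in the direction of its gene:
CTSA, chr20:45891298-45891327, plus strand: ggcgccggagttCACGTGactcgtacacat
NEU1, chr6:31862930-31862959, minus strand: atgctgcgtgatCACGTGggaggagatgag
GAA, upstream site, chr17:80101493-80101522, plus strand: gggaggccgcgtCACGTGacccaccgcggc
GAA, downstream site, chr17:80101538-80101567, plus strand: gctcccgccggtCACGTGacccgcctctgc
MCOLN1, upstream site, chr19:7522571-7522600, plus strand: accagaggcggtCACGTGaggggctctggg
MCOLN1, downstream site, chr19:7522598-7522627, plus strand: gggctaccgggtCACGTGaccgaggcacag
ATP6V0D1, chr16:67481199-67481228, minus strand: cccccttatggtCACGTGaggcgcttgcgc
LAMP1, upstream site, chr13:113297199-113297228, plus strand: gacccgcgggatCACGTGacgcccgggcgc
LAMP1, site at the start, chr13:113297226-113297255, plus strand: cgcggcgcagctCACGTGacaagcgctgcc

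The sites of GAA and the downstream site of MCOLN1 sit within the full palindrome, whereas that of NEU1 holds the core alone. LAMP1 carried 6 copies of CACGTG in its window, more than any other of these genes, and CTSA, GAA and MCOLN1 carried 2 each. All 17 copies in the 9 genes began upstream of the annotated start.

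**Figure D1:**
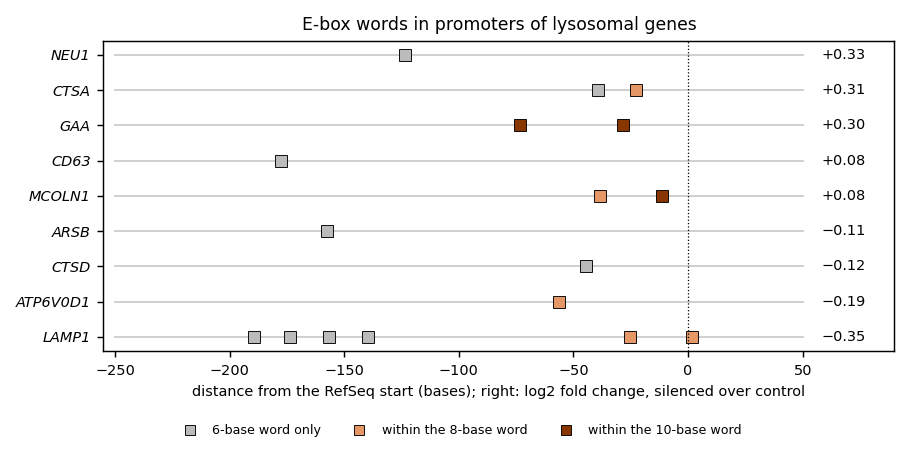
Position of each CACGTG word in the RefSeq promoter windows of 9 lysosomal genes, in bases from the annotated start (dotted line), coloured by the longest of the 3 words that contains it. The value at the right is the log2 fold change of the mRNA, silenced over control, and runs from 0.33 for NEU1 to -0.35 for LAMP1, so that genes with these words lie on both sides of 0.

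Library totals ranged from 9738291 to 17742643 counts, and the 42 genes took between 0.731% and 0.797% of the counts of a library. RNA5-8SP6, a pseudogene of ribosomal RNA, took 3.22% of the counts in control replicate 3 and 0.241% to 0.448% in the other libraries. FAM83H-AS1 was at 15.9 ± 1.39 CPM (counts scaled to library size; SD, n = 3) in control and 4.87 ± 0.617 CPM (SD, n = 3) in silenced cells, which was -1.70 on the log2 scale with a standard error (SE) of 0.148 (edgeR, adjusted p = 7.99e-05), with all silenced libraries below all control libraries (exact permutation test, two-sided: p = 0.1, which is the lower limit for 3 against 3 libraries). The epithelial keratins KRT7, KRT8 and KRT18 were abundant, with 9305 to 28628 counts in every library. Several other markers were low for the label: EPCAM had 32 to 59 counts, KRT19 5 to 17 and CDH1 8 to 19, and of the genes that A549 cells are known to express strongly, ALDH1A1 had 0 to 2 and AKR1B10 9 to 28 counts. The other A549 markers were present, AKR1C1 with 1011 to 1412, AKR1C2 with 178 to 274 and ALDH3A1 with 72 to 195 counts. CDKN2A, which A549 cells are known to have lost and which was looked up only after the counts had been seen, had 521 to 955 counts. The summed level of the 5 A549 markers was 99.1 to 171 CPM in control and 131 to 146 CPM in silenced libraries. The counts of CDKN2A, ALDH1A1 and AKR1B10 are thus unlike those known for A549, and EPCAM, KRT19 and CDH1 were low for the label. The other A549 markers AKR1C1, AKR1C2 and ALDH3A1 were present at the counts given above. The cells are called by their label here without being shown to be A549, and their identity was not tested further. The summed level of the 6 epithelial markers was 4428 to 4727 CPM in control and 3533 to 3574 CPM in silenced libraries, and its part in the results below was not tested. Of 10 macrophage markers, 5 were at 0 in all libraries, and their sum was 0.414 to 0.720 CPM in control and 0.669 to 1.17 CPM in silenced libraries. The sums were 0.777 to 1.44 and 1.27 to 2.01 CPM for 6 leukocyte markers, 29.5 to 35.2 and 35.1 to 42.6 CPM for 6 fibroblast markers, and 4.42 to 6.39 and 3.79 to 4.16 CPM for 4 endothelial markers, in control and silenced libraries respectively. In such bulk libraries, fewer cells of a kind and less RNA per cell cannot be told apart.

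To find out how the lysosomal mRNAs changed after the silencing of FAM83H-AS1, counts were compared by edgeR's quasi-likelihood test with Benjamini-Hochberg adjustment over all tested genes. Of the 42 genes, 11 had an adjusted p under 0.05 (26.2%, against 17.0% of all tested genes). All 42 genes are of the type mRNA, and 19.0% of the tested genes of this type passed. In a fit of the mRNA rows only, 11 of the 42 genes passed, beside 23.3% of all genes in that fit. Of the 11 genes in the main fit, 8 rose (background 8.75%), namely IDS, TPP1, MANBA, NPC2, SMPD1, NEU1, SCARB2 and CTSA. The other 3 fell (background 8.27%), namely CTSH, CTSB and LAMP1. The changes were small: the largest rise was 1.42-fold, for IDS, the largest fall was to 0.737 of the control level, for CTSH, and no gene reached the fold change of 2 that 2.14% of all tested genes passed together with the adjusted p (1.14% higher, 0.997% lower). At an unadjusted p under 0.05 there were 16 genes, and DESeq2 also found 0 beyond a fold change of 2. The median log2 fold change of the 42 genes was 0.08, beside -0.00 for all tested genes, and 24 lay above and 18 below 0. All silenced libraries lay above all control libraries in 14 genes (background 19.1%) and below them in 5 (background 17.5%). Thus 19 of 42 did not overlap (36.6% of all tested genes). Leaving out 1 library changed the number of passing genes most without silenced replicate 1 (6 genes) and without control replicate 2 (7 genes). In these fits, 7.87% and 11.4% of all genes passed, respectively.

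**Figure D2:**
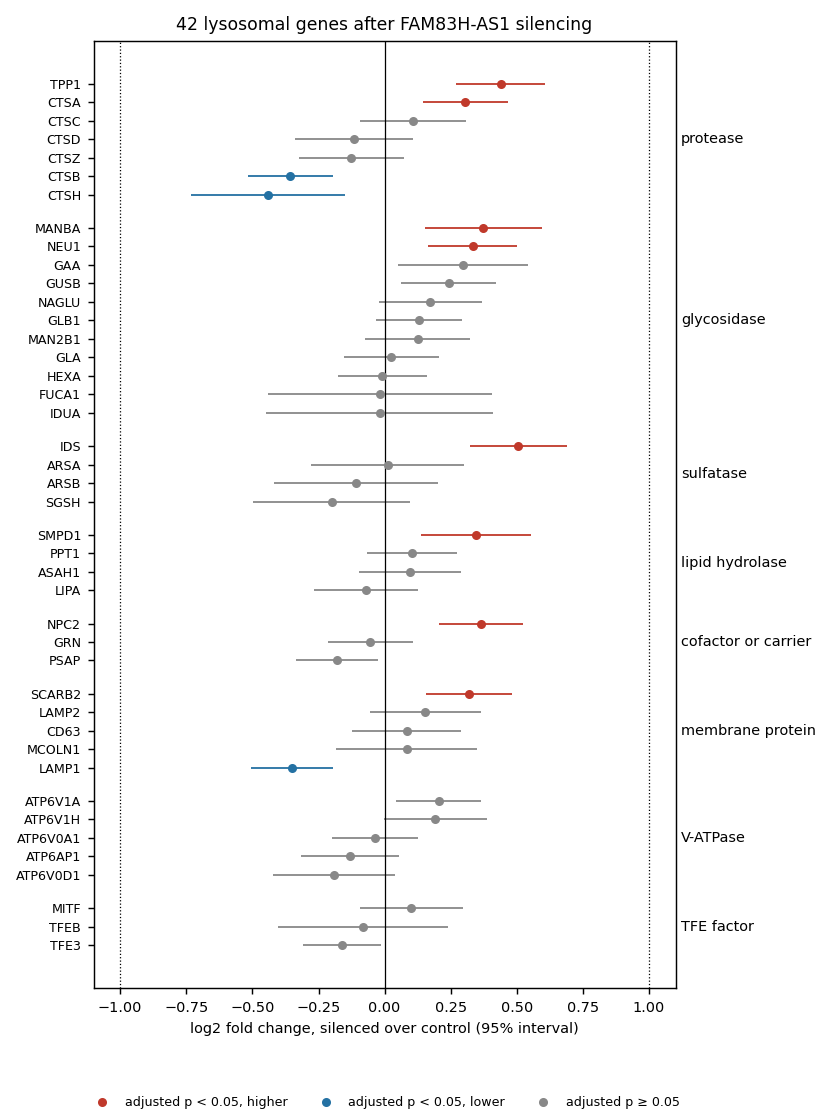
Log2 fold change of the 42 lysosomal genes, silenced over control, with the 95% interval from the edgeR fit, grouped by role. Colour marks genes with an adjusted p under 0.05 (8 higher, 3 lower); all 42 intervals lie between the dotted lines that mark a fold change of 2.

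The lysosomal proteases moved in both directions. TPP1, the aminopeptidase that removes tripeptides from the ends of proteins and is lost in a childhood form of neuronal ceroid lipofuscinosis, was at 184, 187 and 199 CPM in the control libraries and at 264, 273 and 235 CPM in the silenced libraries. Every silenced library lay above every control library, and the log2 fold change was 0.44 (SE 0.0765, adjusted p = 0.00398 by edgeR). TPP1 lies on chromosome 11 from 6612763 to 6619485 on the minus strand (GENCODE 29, GRCh38). CTSA, a carboxypeptidase that also protects the sialidase NEU1 in a common complex, was at 266, 243 and 261 CPM in control and 340, 304 and 308 CPM in silenced libraries. The groups did not overlap, with a log2 fold change of 0.31 (SE 0.0726, adjusted p = 0.0165), but the adjusted p was 0.0669 without control replicate 2 and 0.0913 without silenced replicate 1. PLTP, whose annotated span overlaps that of CTSA by 200 bases on the other strand, rose as well (0.88, SE 0.168, adjusted p = 0.00606, 47 to 145 counts). Overlap of exons was not examined, and the strand of the counting is not stated in the sources used here.

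In contrast, 2 papain-like cysteine cathepsins fell. CTSB, which cleaves from within the chain and from its end, was at 255, 241 and 256 CPM in control and 189, 187 and 211 CPM in silenced libraries. All silenced libraries were below all control libraries, with a log2 fold change of -0.36 (SE 0.0731, adjusted p = 0.00883). Without silenced replicate 1 the log2 fold change was -0.33 and the adjusted p 0.0538. CTSH, an aminopeptidase that takes part in the processing of surfactant protein B in lung, was at 20.3, 18.7 and 23.1 CPM in control and 17.9, 13.3 and 14.8 CPM in silenced libraries. The gap between the groups was narrow, and although the log2 fold change was -0.44 (SE 0.133, adjusted p = 0.043), the adjusted p passed 0.05 without control replicate 1 (0.0764), control replicate 2 (0.0524), control replicate 3 (0.155), silenced replicate 2 (0.116) or silenced replicate 3 (0.104). DESeq2 gave 0.0538 for CTSH, and scaling by library size alone gave 0.0535. The aspartic protease CTSD (-0.12, adjusted p = 0.465), the carboxypeptidase CTSZ (-0.13, adjusted p = 0.374) and CTSC, which activates serine proteases of immune cells (0.11, adjusted p = 0.448), did not pass, and their intervals bounded a change to between -0.34 and 0.31 on the log2 scale.

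Among the 11 glycosidases, 2 rose, none fell and 9 did not pass. The share that passed was 18.2%, near the 17.0% of all tested genes. NEU1, the sialidase that removes terminal sialic acids, was at 67.1, 63.2 and 59.4 CPM in control and 81.7, 77.0 and 80.0 CPM in silenced libraries. The groups were apart by more than the spread within either, with a log2 fold change of 0.33 (SE 0.0765, adjusted p = 0.0142), while the adjusted p was 0.0512 without control replicate 3 and 0.0657 without silenced replicate 1. MANBA, the beta-mannosidase for the last steps of N-glycan breakdown, was at 19.0, 21.9 and 22.2 CPM in control and 26.4, 29.3 and 26.4 CPM in silenced libraries. Its log2 fold change was 0.37 (SE 0.101, adjusted p = 0.0285), and the groups did not overlap. For MANBA the adjusted p was 0.0812 without control replicate 1, 0.0609 without control replicate 2, 0.0705 without silenced replicate 1, 0.0742 without silenced replicate 2 and 0.0565 in DESeq2.

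GLB1, the beta-galactosidase that joins CTSA and NEU1 in the multienzyme complex, had a log2 fold change of 0.13 (95% interval -0.03 to 0.29, adjusted p = 0.255). The acid alpha-glucosidase GAA, whose loss causes Pompe disease, was at 0.30 (0.05 to 0.54, adjusted p = 0.0942) and the beta-glucuronidase GUSB at 0.24 (0.06 to 0.42, adjusted p = 0.0658), and in both all silenced libraries lay above all control libraries. GUSB had an adjusted p of 0.049 when scaled by library size alone and of 0.0308 without silenced replicate 2. Annotated pseudogenes of GUSB could share its reads, and GUSBP1, with 101 to 223 counts, moved the other way (-0.49, SE 0.153, adjusted p = 0.0498). NAGLU (0.17) and the alpha-mannosidase MAN2B1 (0.13) were nearer to 0. Nearest were the alpha-galactosidase GLA (0.03), the alpha-fucosidase FUCA1 (-0.02), the alpha-iduronidase IDUA (-0.02) and HEXA, the alpha subunit of beta-hexosaminidase (-0.01). In GLB1 and NAGLU, too, all silenced libraries lay above all control libraries. This held for 6 of the 11 glycosidases, beside 19.1% of all tested genes. For FUCA1 and IDUA, which had the fewest counts of these enzymes, the intervals were widest and reached 0.41 and -0.45 on the log2 scale.

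IDS, the sulfatase that removes sulfate from iduronate in heparan and dermatan sulfate and is deficient in Hunter syndrome, had the largest rise of all 42 genes. Its level was 41.2, 36.1 and 41.6 CPM in control and 54.3, 59.1 and 55.7 CPM in silenced libraries. No library of one group reached into the other, and the log2 fold change was 0.51 (SE 0.084, adjusted p = 0.0031). IDS lies on chromosome X from 149476990 to 149521096 on the minus strand (GRCh38), and its partial copy IDSP1, which could share reads with it, had 3 to 11 counts in control and 15 to 18 in silenced libraries (log2 fold change 1.40, SE 0.387, adjusted p = 0.0315). The other sulfatases ARSA (0.01), ARSB (-0.11) and SGSH (-0.20, adjusted p = 0.339) did not pass. IDS, IDUA, SGSH, NAGLU and GUSB act in turn on the same heparan sulfate chains, and of these 5 genes IDS alone had an adjusted p under 0.05, with the differences between them not tested.

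SMPD1, the acid sphingomyelinase that releases ceramide, was at 35.4, 35.8 and 34.9 CPM in control and 43.8, 40.1 and 50.5 CPM in silenced libraries. The control libraries were nearly equal, whereas the silenced libraries spread widely, and the log2 fold change was 0.35 (SE 0.0946, adjusted p = 0.0302). The adjusted p of SMPD1 was 0.0643, 0.0737 and 0.0813 without control replicates 1, 2 and 3, and 0.0783 and 0.110 without silenced replicates 1 and 3. ASAH1, the acid ceramidase of the next step, was at 0.10 (adjusted p = 0.481), PPT1, which cleaves fatty acids from proteins, at 0.10 (adjusted p = 0.393), and the acid lipase LIPA at -0.07 (adjusted p = 0.629). The annotated span of LIPA, introns included, overlaps IFIT1, IFIT2 and IFIT3 on the other strand. These interferon-stimulated genes rose (0.76, 1.17 and 0.94 on the log2 scale, adjusted p = 0.00449, 0.00153 and 1.68e-04). Overlap of exons was not examined, so that whether LIPA shares reads with them was not tested.

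Among the cofactors and carriers, NPC2, which hands cholesterol from the lysosomal lumen to the membrane transporter NPC1, rose. It was at 46.9, 48.5 and 47.1 CPM in control and 61.9, 58.3 and 63.0 CPM in silenced libraries. The spread within each group was smaller than the gap between them (log2 fold change 0.36, SE 0.073, adjusted p = 0.00784). NPC2 is on chromosome 14 from 74476192 to 74494177 on the minus strand (GRCh38). PSAP, the precursor of the saposins that present sphingolipids to their hydrolases, was at 2395, 2475 and 2523 CPM in control and 2153, 2072 and 2301 CPM in silenced libraries. All silenced libraries of PSAP were below the control libraries, with a log2 fold change of -0.18 (95% interval -0.33 to -0.03, adjusted p = 0.102), which did not pass, whereas DESeq2 gave an adjusted p of 0.0435. GRN, the precursor of granulins, was at -0.05 (adjusted p = 0.654).

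The membrane proteins LAMP1 and LAMP2, close relatives that make up much of the protein of the lysosomal membrane, had different values. LAMP1 was at 279, 260 and 258 CPM in control and 218, 198 and 209 CPM in silenced libraries. Each silenced library was lower than each control library, with a log2 fold change of -0.35 (SE 0.0707, adjusted p = 0.00804). LAMP1, whose promoter window with 6 E-box words is shown above, lies on chromosome 13 from 113297241 to 113323672 on the plus strand (GRCh38). LAMP2, which also serves chaperone-mediated autophagy, was at 54.4, 57.95 and 55.1 CPM in control and 58.6, 71.5 and 56.3 CPM in silenced libraries. Here the groups overlapped, and the log2 fold change was 0.15 (95% interval -0.06 to 0.36, adjusted p = 0.299). The intervals of LAMP1 (-0.51 to -0.20) and LAMP2 do not overlap, although the difference between the genes was not tested.

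SCARB2, also known as LIMP-2, a sorting receptor of the lysosomal membrane, was at 55.9, 61.0 and 59.5 CPM in control and 70.8, 76.4 and 73.0 CPM in silenced libraries. The silenced libraries were all higher, with a log2 fold change of 0.32 (SE 0.0745, adjusted p = 0.0154). SCARB2 lies on chromosome 4 from 76158733 to 76234536 on the minus strand (GRCh38). The calcium channel MCOLN1, with the full CLEAR palindrome in its promoter, was at 31.2, 23.3 and 29.9 CPM in control and 31.4, 26.4 and 31.4 CPM in silenced libraries. These overlapped, and the log2 fold change of 0.08 (95% interval -0.18 to 0.35, adjusted p = 0.676) turned to -0.034 without control replicate 2. The tetraspanin CD63 was at 0.08 (adjusted p = 0.574).

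**Figure D3:**
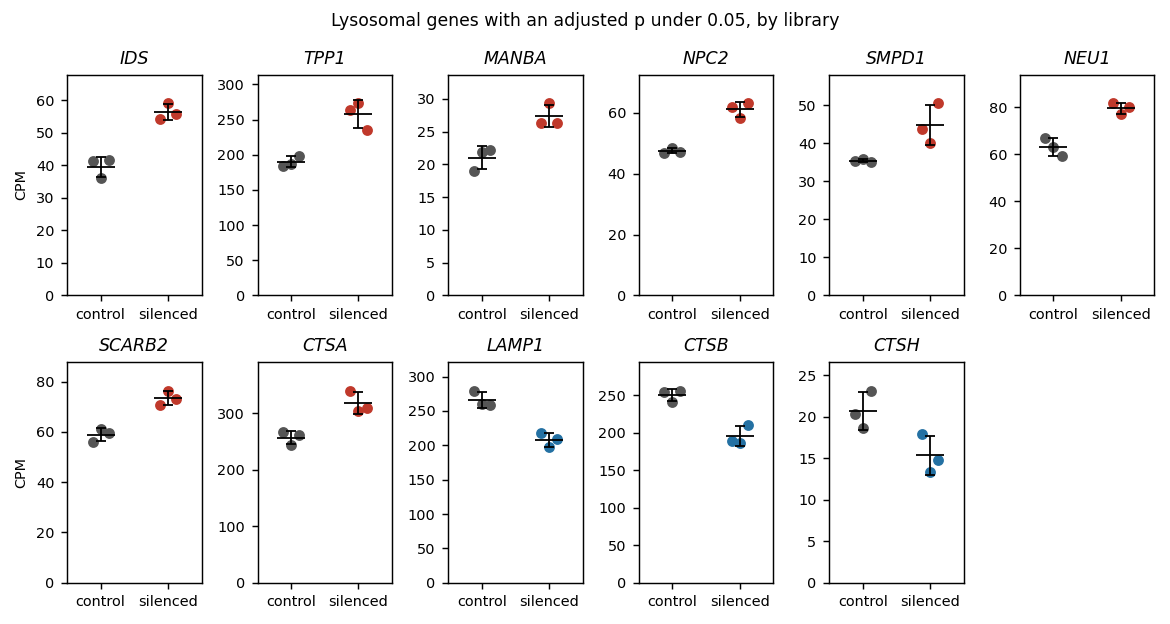
Level in CPM of the 11 lysosomal genes with an adjusted p under 0.05 in each of the 3 control and 3 silenced libraries, with the mean (bar) and SD. Axes start at 0; in all 11 genes the libraries of the groups do not overlap, with the narrowest gap in CTSH (18.7 CPM in the lowest control and 17.9 CPM in the highest silenced library).

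None of the 5 V-ATPase subunits among the 42 genes passed the test. ATP6V1A, the catalytic subunit that hydrolyses ATP, was at 0.20 (95% interval 0.04 to 0.37, adjusted p = 0.0801) and ATP6V1H, a regulatory subunit of the same cytosolic sector, at 0.19 (adjusted p = 0.162), and in both all silenced libraries lay above the control libraries. ATP6V0A1 (-0.04) and ATP6V0D1 (-0.19, adjusted p = 0.237) of the membrane sector and the accessory protein ATP6AP1 (-0.13, adjusted p = 0.309) were below 0, each with overlapping groups. In the remaining subunits, 4 of the 16 tested had an adjusted p under 0.05 (25%, against 17.0% of all tested genes), in both directions. ATP6V0C, the proteolipid that forms the rotor ring, fell from 201 ± 19.5 to 132 ± 15.4 CPM (SD, n = 3 each; -0.61 on the log2 scale, SE 0.10, adjusted p = 0.00297), and ATP6V0E1 rose from 199 ± 9.20 to 261 ± 4.34 CPM (SD, n = 3 each), with a log2 value of 0.39 (SE 0.0672, adjusted p = 0.00384). ATP6V0E2 fell (-0.47, adjusted p = 0.0213) and ATP6V1E1 rose (0.31, adjusted p = 0.0243). Both calls were lost in some fits with 1 library left out, which had fewer samples. For ATP6V0E2 this held without control replicate 1, control replicate 2 or silenced replicate 3 (adjusted p = 0.0624, 0.0580 and 0.0687). Its log2 values there were -0.36, -0.47 and -0.41. For ATP6V1E1 it held without control replicates 1 or 3 or silenced replicates 1 or 2 (0.0622, 0.0746, 0.0860 and 0.0689). Its log2 values there were 0.29, 0.26, 0.31 and 0.26. All 8 tested subunits of the cytosolic sector on this list had a log2 fold change above 0, beside 7611 of all 15250 tested genes. Of the 8 subunits, 1 passed (12.5%, against 17.0% of all tested genes).

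The 3 transcription factors did not pass. TFEB was at 13.4, 11.5 and 14.4 CPM in control and 14.7, 11.6 and 11.0 CPM in silenced libraries, with overlapping groups and a log2 fold change of -0.08 (95% interval -0.40 to 0.24, adjusted p = 0.74). MITF, better known from melanocytes, was at 94.8, 109 and 118 CPM in control and 110, 117 and 118 CPM in silenced libraries, a log2 fold change of 0.10 (-0.09 to 0.29, adjusted p = 0.462). TFE3 was at 163, 154 and 154 CPM in control and 142, 140 and 139 CPM in silenced libraries. The groups of TFE3 did not overlap, but its log2 fold change of -0.16 (-0.31 to -0.01) had an adjusted p of 0.124. The activity of these factors is set largely by their phosphorylation and location, which mRNA counts do not measure.

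Of the 9 genes with CACGTG in a promoter window, NEU1 and CTSA rose, LAMP1 fell and 6 did not pass, with a median log2 fold change of 0.08. Of the 22 genes with a window but without the word, 5 rose and 1 fell, with a median of 0.06, and of the 11 genes without a window 1 rose and 1 fell, with a median of 0.10. The 3 groups were not compared by a test, and of all tested genes 17.0% passed (8.75% higher, 8.27% lower).

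Between genes, levels were compared per length only, as CPM per kilobase of the union of annotated exons (GENCODE 29), which understates genes with long rarely used exons. In control cells, PSAP was highest at 761 CPM per kilobase, followed by CTSD at 398, CD63 at 184, CTSZ at 126 and GRN at 125, and none of these 5 genes passed the test. CTSZ and GRN, at nearly the same level per length, differed by less than the SD over the control libraries of either gene. LAMP1 (46.3), CTSA (43.8) and CTSB (33.7) were next among the genes that changed, while IDS was at 4.27, CTSH at 3.51, SCARB2 at 3.04 and MANBA at 1.79 CPM per kilobase. ARSB was lowest, at 1.21. The genes that passed the test were thus spread over the range of levels below the 5 most abundant genes.

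To place these values among the rest of the pathway, 6 further lists were examined, with 183 tested genes. Of these, 46 had an adjusted p under 0.05, 27 higher and 19 lower. This was 25.1%, against 17.0% of all tested genes and 19.0% of those of the type mRNA. When scaled by library size alone, 32 were higher and 14 lower. Without silenced replicate 1 there were 23 and without control replicate 1 there were 29. In these fits, 7.87% and 11.7% of all genes passed, respectively. The median log2 fold change was 0.04.

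Among 31 tested hydrolases that were not part of the 42 genes, 5 rose and 4 fell (29.03% passing, against 17.0% of all tested genes). Their median log2 fold change was -0.07. CTSS, a cysteine cathepsin known from antigen presentation, rose from 16.3 ± 2.45 to 30.7 ± 3.25 CPM (SD, n = 3 each; log2 fold change 0.91, SE 0.126, adjusted p = 0.00122), in contrast to CTSB and CTSH. IFI30, the thiol reductase of the same pathway, rose by 0.36 (adjusted p = 0.00422), and both genes are known to be induced by interferon. The hyaluronidase HYAL2 fell by 0.35 on the log2 scale (adjusted p = 0.0183), with an adjusted p of 0.0523 without control replicate 1, 0.0627 without silenced replicate 1 and 0.0500062 without silenced replicate 2.

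Of 35 other tested membrane and transport genes, 3 rose and 5 fell (22.9% passing, against 17.0% of all tested genes). CD68, a LAMP family member used as a macrophage marker, rose from 130 ± 9.31 to 239 ± 14.7 CPM (SD, n = 3 each), with a log2 value of 0.88 (SE 0.0793, adjusted p = 9.93e-05), while the 10 macrophage markers given above had at most 7 counts in any library. SLC11A1, a metal ion transporter of phagosomes, had 4, 5 and 7 counts in control and 20, 14 and 35 counts in silenced libraries. At this low level its log2 fold change was 2.21 (SE 0.384, adjusted p = 0.00397), the only change beyond a fold of 2 in the 6 lists. LAPTM4A (-0.34, adjusted p = 0.0118), TMEM106B (-0.70, adjusted p = 0.0167) and the transporter MFSD12 (-0.39, adjusted p = 0.0238) fell. The adjusted p of LAPTM4A was 0.0557 without silenced replicate 1, that of TMEM106B 0.0671, 0.0651 and 0.0554 without control replicate 2 and silenced replicates 1 and 3, and that of MFSD12 0.0739, 0.0549, 0.0580 and 0.0613 without control replicates 1 and 3 and silenced replicates 1 and 2.

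**Figure D4:**
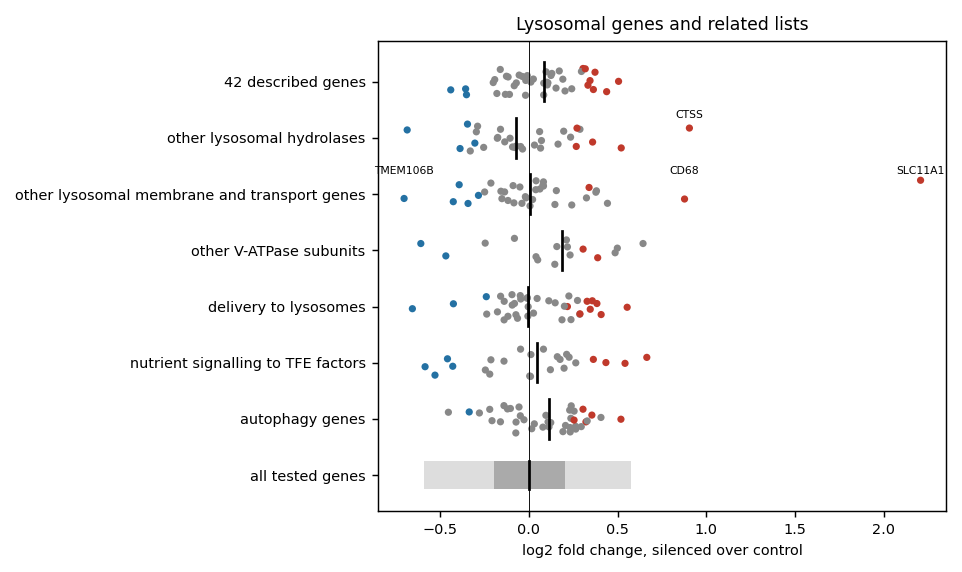
Log2 fold change, silenced over control, of the 42 lysosomal genes and of 6 related lists, 1 point per gene, with red and blue for genes higher or lower with an adjusted p under 0.05 and a black bar at the median. The bottom bar gives the middle 50% (dark) and 90% (light) of all 15250 tested genes; every list has genes on both sides of 0, and SLC11A1 at 2.21 is alone beyond 1.

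In the delivery of hydrolases, 8 of 38 tested genes rose and 3 fell (28.9% passing, against 17.0% of all tested genes). Both mannose 6-phosphate receptors were among those that rose, IGF2R from 277 ± 24.99 to 368 ± 10.2 CPM (SD, n = 3 each; log2 fold change 0.41, SE 0.0773, adjusted p = 0.00604) and M6PR by 0.36 (SE 0.0829, adjusted p = 0.0146), the latter named in addition after its value had been seen. SORT1, the sorting receptor sortilin that does not need this tag, fell from 93.7 ± 5.02 to 69.8 ± 3.03 CPM (SD, n = 3 each; -0.42, SE 0.0766, adjusted p = 0.00469). AP3D1, a subunit of the adaptor that brings LAMP1 to lysosomes, fell from 278 ± 15.8 to 176 ± 6.18 CPM (SD, n = 3 each; -0.66, adjusted p = 2.86e-04). PLEKHM1 (0.55, adjusted p = 0.00138) and VPS18 (0.38, adjusted p = 0.0109), which tether lysosomes to other vesicles, rose. The 3 genes for the mannose 6-phosphate tag did not pass.

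Of 24 tested genes of nutrient signalling to the TFE factors, 4 rose and 4 fell (33.3% passing, against 17.0% of all tested genes). The kinase MTOR fell from 264 ± 24.7 to 176 ± 1.13 CPM (SD, n = 3 each; log2 fold change -0.58, SE 0.0782, adjusted p = 0.00101), and so did its partners MLST8 (-0.46, adjusted p = 0.005) and AKT1S1 (-0.43, adjusted p = 0.00854). RRAGA, a GTPase that brings mTOR to the lysosome, rose (0.43, adjusted p = 0.00416), as did FNIP2, a partner of folliculin (0.67, adjusted p = 0.00815). Of 39 tested autophagy genes, 5 rose and 1 fell, with 15.4% passing against 17.0% of all tested genes. WIPI1 (0.52, adjusted p = 0.00918), the receptor CALCOCO2 (0.32, adjusted p = 0.0154), ATG2A (0.36, adjusted p = 0.0222) and VMP1 (0.31, adjusted p = 0.0236) rose, and MAP1LC3B, which coats the autophagosome, fell (-0.34, adjusted p = 0.0145). Except for WIPI1, these calls were lost without single libraries. Without silenced replicate 1 the adjusted p was 0.0701 for CALCOCO2, 0.0983 for ATG2A, 0.0885 for VMP1 and 0.0547 for MAP1LC3B. Without control replicate 2 it was 0.0523 for CALCOCO2 and 0.0780 for ATG2A, without control replicate 1 it was 0.0649 for VMP1, and without silenced replicate 3 it was 0.0597 for ATG2A and 0.0595 for VMP1.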

How the data were processed

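RNA-Seq was performed by the authors on 6 Ion Proton libraries, 3 per group. MapSplice gave the reads per gene, and DESeq was the test the authors applied. The deposited table holds raw counts, not normalized, with 1 symbol per row for 40173 genes, and 14309 of these were at 0 throughout. The submitters' processing notes name the build GRCh37. The annotation and the treatment of strand and of reads with several matches are not given in the sources used here. The table holds no coordinates, so that positions were taken by symbol from GENCODE 29 or RefSeq, both on GRCh38.

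The counts were tested with edgeR 4.0.16 in R 4.3.3 (filterByExpr, TMM, quasi-likelihood F test, Benjamini-Hochberg adjustment over 15250 genes) and, as an alternative, with DESeq2 1.42.0. The SE was obtained from the log2 value and the F statistic, as |log2| / √F, and 95% intervals use the t distribution of the fit. CPM were computed on the TMM-scaled library size. Positive log2 fold changes mean higher levels after silencing. Scripts were tested on simulated data. Library totals ran from 9738291 to 17742643 counts, and the lowest count of any of the 42 genes in a library was 48.

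Members and lists were chosen with earlier results of these data known, so that no list was given a test of its own. Values in every library are given for members with an adjusted p under 0.05, for LAMP1, LAMP2 and MCOLN1 and for the TFE factors. From each further list, genes that also passed a fold change of 2 and then those with the smallest p, 5 in all, are named, except for some genes that are not reported here. PSAP, M6PR and neighbouring or copied genes were added after their values had been seen. Alternatives were other scaling, filters, thinning, mRNA rows only, an adjusted p under 0.01, a replicate block and each library left out.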

Additional observations from a re-analysis of the deposited data

How the results depend on the processing

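The number of the 42 lysosomal genes with an adjusted p under 0.05 was 11 by edgeR. It was between 10 and 13 with RLE factors, library size only, DESeq2, both other filters, thinning, mRNA rows only and the replicate block. Over all genes in these fits, the share that passed ran from 9.04% with DESeq2 to 23.3% with mRNA rows only, against 17.0% in the main fit. Under any alternative, 0 of the 42 genes passed a fold change of 2. Of the 11 genes, 5 (IDS, TPP1, NPC2, LAMP1 and SCARB2) kept an adjusted p under 0.05 in all 14 alternatives. At an adjusted p under 0.01 there were 5 genes, 3 higher and 2 lower. With 1 library left out, between 6 and 10 of the 42 genes passed, and between 23 and 34 genes of the further lists (46 with all libraries). These fits had fewer samples. Over all tested genes, 2595 passed with all libraries (17.0%) and 1225 without silenced replicate 1 (7.87%). The highest share with 1 library left out was 12.7%, without silenced replicate 3. Scaling by library size alone moved the median log2 fold change of the 42 genes from 0.08 to 0.12, and that of all tested genes to 0.03. With the 10-base CLEAR palindrome in place of CACGTG, the share of genes with the word was 6.45%. Among the genes that had not passed, the log2 fold change of TFEB ranged from -0.22 without silenced replicate 1 to 0.0019 without silenced replicate 3, and that of MCOLN1 from -0.034 without control replicate 2 to 0.16 without silenced replicate 2. FAM83H-AS1 kept its call in every alternative that tested it, which leaves out the mRNA rows.

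The labels do not say whether equal replicate numbers pair the libraries. Deviations of same-numbered libraries from their group means correlated at 0.124, 0.149 and 0.067. For libraries of unequal number the correlations ran from -0.112 to 0.018. Every library thus correlated best with its own number, though weakly, a hint from the data and not from the design. With the replicate block, 13 of the 42 genes passed, the 11 above with GUSB (adjusted p = 0.0357) and PSAP (0.0465) in addition, and 57 genes of the further lists. Over all tested genes, 3449 passed with the block (22.6%). The half-width of the 95% interval ran from 0.15 to 0.43 on the log2 scale over the 31 genes that did not pass. How much of this comes from depth and how much from the spread between replicates was not tested, nor was the cause of the differences between alternatives.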
